A study of Homo sapiens with 9 samples.

Results

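The let-7 miRNAs repress a set of genes that are active in the embryo and are switched on again in many cancers, and 8 of them were followed here: HMGA1, HMGA2, IGF2BP1, IGF2BP2, IGF2BP3, MYC, TRIM71 and ARID3B. The members were chosen by name, with earlier results of these data known. Every array probe whose gene symbol was one of the 8 was used, which gave 11 probes. All 8 genes had a probe, out of 17559 genes named on the array, and HMGA1, MYC and ARID3B had 2 each. On each array a probe was called detected if it exceeded a limit set by the 2680 blank spots there, their mean plus 2 SD, and it was kept when it was detected on at least 5 of the 9 arrays. By this rule 7 members were kept and IGF2BP1 was not.

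All samples were RKO cells, an established human line from a colorectal cancer, with DICER disrupted at exon 5 in all 9 samples, so the control carried the disruption too. DICER is the RNase that releases mature miRNAs from their precursors. Lipofection delivered double-stranded oligonucleotides, with RNA extraction after 48 h: a negative control, or miR-200c, miR-21, let7a or miR-17, each in a native and in a methylated form. Each of these 9 groups was 1 one-colour oligonucleotide array, and the design text gives the question as the effect of RNA modification on miRNAs. The labels name neither the base that was methylated nor the number of cell clones.

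A mature miRNA guides an Argonaute protein to messenger RNAs, mostly through its seed, the stretch of bases at its 5′ end that pairs with sites in the 3′ untranslated region, and the target is then degraded or translated less. Let-7 is low in the early embryo, where LIN28 proteins block its maturation, and rises as cells differentiate. The HMGA genes code for architectural chromatin proteins, the IGF2BP genes for RNA-binding proteins that stabilise their client RNAs, MYC for a transcription factor of growth genes, TRIM71 for an RNA-binding protein of stem cells, and ARID3B for a DNA-binding protein. HMGA2 is one of the best studied let-7 targets, with several sites in its 3′ untranslated region, and LIN28B, MYC and the IGF2BP genes are often active together in tumours with little let-7.

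The mature sequences of the 4 miRNAs are shown because the seed defines which messengers each can pair with. They are RefSeq entries on GRCh38.p14, written 5′ to 3′ with the seed, bases 2 to 8, in capitals. The labels do not give the arm or the sequence of the oligonucleotides, and the arm usually called the guide strand is shown.
hsa-let-7a-5p: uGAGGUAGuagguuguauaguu
hsa-miR-17-5p: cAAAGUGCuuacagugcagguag
hsa-miR-200c-3p: uAAUACUGccggguaaugaugga
hsa-miR-21-5p: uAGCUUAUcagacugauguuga
The 4 seeds are all different. The let-7a sequence is encoded at 3 loci, chr9:94175962-94175983 on the plus strand, chr11:122146568-122146589 on the minus strand and chr22:46112752-46112773 on the plus strand. Its seed is shared by 11 mature human miRNA names, among them the other let-7 members and miR-98, and it pairs with CUACCUC in a messenger. The miR-17 sequence lies at chr13:91350618-91350640 on the plus strand and its seed is shared by 8 names. The miR-200c sequence lies at chr12:6963742-6963764 on the plus strand, with 3 names, and that of miR-21 at chr17:59841273-59841294 on the plus strand, with 2 names. The sequences of target sites in the 8 genes were not analysed here.

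Between 16983 and 19118 of the 24460 probes were detected per array, and detected probes had a median intensity of 98.2 to 142 against blank means of 31.4 to 46.8. The epithelial markers EPCAM, CDH1 and KRT18 were among 11 kept of 17 cell type markers, 14 of which had a probe, and PTPRC, COL1A1 and COL1A2, which mark leukocytes and fibroblasts, were detected on 0 arrays. Other non-epithelial markers were kept: the fibroblast marker DCN stood at 7.64 on the control, the T cell marker CD3E at 5.94 and the endothelial marker VWF at 5.99. DICER1 was kept, at a log2 intensity of 6.71 on the control, but whether its probe lies in the disrupted exon was not analysed here. Before the results, 2 arrays must be set apart. Over 16072 kept features, centred separately over native and over methylated arrays, native and methylated arrays of one miRNA had an r across features of 0.70 for miR-200c and 0.46 for miR-21, but of -0.22 for let7a and -0.16 for miR-17. The array labelled let7a methylated had an r of 0.69 with miR-17 native, and that labelled miR-17 methylated an r of 0.56 with let7a native. The labels were kept. These 2 are called the set-apart arrays where they are named together, and results that rest on them are also given without them.

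HMGA1 was lower on the array labelled let7a native than on every other array. Its log2 intensity was 12.18 on the negative control, 12.26 with miR-200c native, 12.05 with miR-200c methylated, 12.31 with miR-21 native, 12.13 with miR-21 methylated, 11.16 with let7a native, 12.42 on the array labelled let7a methylated, 12.18 with miR-17 native and 11.60 on that labelled miR-17 methylated. Thus 6 miRNA arrays lay within 0.23 of the control, and the arrays labelled let7a native and miR-17 methylated stood below them. The let7a native value was -1.02 relative to the control, or 0.493 of its level, a difference of 1 log2 or more below the control that 0.23% of all kept features had on that array. The array labelled miR-17 methylated was at -0.58, or 0.668 of the control. No gap between neighbours in the order exceeded the residual SD of the model over arrays, 0.57 for HMGA1. That SD includes the differences within the let7a and miR-17 pairs as labelled. Without the 2 set-apart arrays it was 0.02, on 1 residual degree of freedom. That value only reflects how alike methylated minus native was for miR-200c, at -0.21, and for miR-21, at -0.18. The gaps above the 2 lowest arrays, 0.44 and 0.45, cannot be measured against it. Both gaps involve the array labelled miR-17 methylated, which that fit left out. In bulk RNA, fewer cells that express a gene and less of its RNA per cell cannot be told apart.

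The other HMGA1 probe, on its own scale, gave 9.48 with let7a native against 10.47 on the control, a difference of -0.99, and 10.14 on the one labelled miR-17 methylated, a difference of -0.33. It was lowest on let7a native too, but on it miR-200c methylated, at 10.07, lay below the array labelled miR-17 methylated. In the authors' deposited table, whose scaling was not stated in the sources, the brighter probe stood at 836 with let7a native and 1665 on the control. Both probes were bright: the raw intensity was 56.0 to 128 times the detection limit for the first and 16.8 to 36.9 times for the second.

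HMGA2 was below the control on all 8 miRNA arrays, except with miR-200c methylated in the authors' deposited table. Its log2 intensity was 9.93 on the control, 9.35 with miR-200c native, 9.59 with miR-200c methylated, 9.67 with miR-21 native, 9.62 with miR-21 methylated, 9.30 with let7a native, 9.13 on the array labelled let7a methylated, 9.65 with miR-17 native and 9.26 on that labelled miR-17 methylated. The 8 differences from the control ran from -0.80 on the array labelled let7a methylated to -0.25 with miR-21 native, and let7a native was at -0.62, or 0.649 of the control. The 4 lowest arrays, both labelled let7a, the array labelled miR-17 methylated and miR-200c native, lay within 0.58 to 0.80 below the control. The gaps between these 4 neighbours in the order, 0.04 to 0.13, were below the residual SD of the model over arrays, 0.19, and the gap from miR-200c native up to miR-200c methylated, 0.24, was above it.

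A single control array sets the direction of all 8 HMGA2 differences, and 6.91% of all kept features were below the control on all 8 arrays. Of the 7 kept members, HMGA2 and IGF2BP3 were. In the authors' deposited table HMGA2 stood at 360 with miR-200c methylated and 328.6 on the control, a difference of 0.13 with the opposite sign. There the median of all features shifted by 0.55 on that array, and relative to it HMGA2 was at -0.42.

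**Figure D1:**
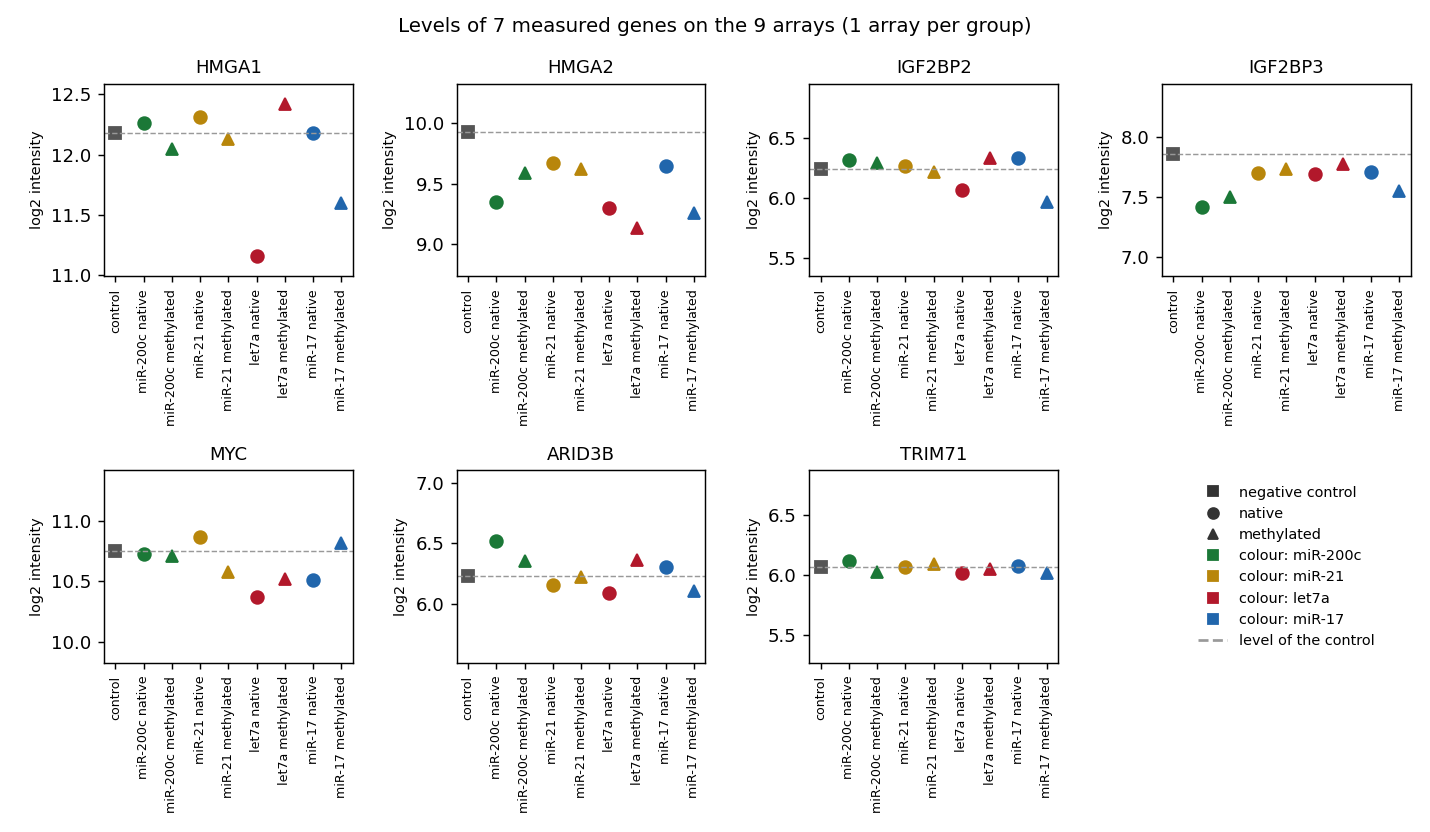
Log2 intensity (vertical axis, each panel spanning the same height) of the 7 kept members on the 9 arrays (horizontal axis), 1 point per array and no error bars because each group is 1 array. HMGA1 is low on the arrays labelled let7a native (11.16) and miR-17 methylated (11.60), while HMGA2 lies below the dashed control line on all 8 miRNA arrays, 1 of which (miR-200c methylated) is 0.13 above the control in the authors' deposited table.

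IGF2BP1, a fetal RNA-binding protein that protects MYC messenger RNA, gave no usable level. Its raw intensity was 36.7 to 50.6, which is 0.933 to 1.04 times the detection limit, and only the arrays of miR-200c methylated and miR-17 native passed the limit, at 1.03 and 1.04 times. A difference between arrays in IGF2BP1 was not detectable at this signal.

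IGF2BP2 was dim, at 1.10 to 1.61 times the detection limit, but detected on all 9 arrays. Its raw intensity above the blank mean was 23.4 on the control, 24.5 and 28.2 with miR-200c native and methylated, 23.4 and 19.1 with miR-21 native and methylated, 13.1 with let7a native, 23.6 on the array labelled let7a methylated, 25.5 with miR-17 native and 10.2 on that labelled miR-17 methylated. The arrays labelled let7a native and miR-17 methylated were the lowest here as they were for HMGA1. On the log2 scale, where the background offset of 50 compresses dim probes, the values were 6.24 on the control, 6.07 with let7a native and 5.97 on the one labelled miR-17 methylated, and the other 6 ran from 6.22 to 6.33. These differences of -0.17 and -0.27 became -0.72 and -1.29 when the blank mean was subtracted without an offset.

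IGF2BP3, which binds and stabilises oncogene messengers, was clearly detected, at 3.16 to 4.95 times the limit. Its log2 intensity was 7.86 on the control, 7.42 and 7.50 with miR-200c native and methylated, 7.70 and 7.73 with miR-21 native and methylated, 7.69 with let7a native, 7.77 on the array labelled let7a methylated, 7.71 with miR-17 native and 7.55 on that labelled miR-17 methylated. The 2 miR-200c arrays were the lowest, 0.44 and 0.36 below the control, and let7a native was only 0.17 below it. Unlike HMGA1, IGF2BP3 had its lowest levels with another miRNA than let7a. The gap from miR-200c methylated up to the array labelled miR-17 methylated, 0.05, was below the residual SD of the model over arrays, 0.08. The next gap, up to let7a native, was 0.14 and above it.

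MYC was bright, at 32.3 to 50.3 times the limit with 1 probe, while its other probe was detected on 0 of 9 arrays. The log2 intensity was 10.75 on the control, 10.73 and 10.71 with miR-200c native and methylated, 10.87 and 10.58 with miR-21 native and methylated, 10.37 with let7a native, 10.52 on the array labelled let7a methylated, 10.51 with miR-17 native and 10.82 on that labelled miR-17 methylated. The let7a native array was the lowest, at -0.38 or 0.771 of the control, and the array labelled miR-17 methylated was among the highest, at 0.07. Both arrays labelled let7a were below the control for MYC, and no gap between neighbours in the order reached the residual SD of 0.18.

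TRIM71, a ubiquitin ligase and RNA-binding protein that is the human relative of the worm let-7 target LIN-41, varied by 0.10 log2 over the 9 arrays, from 6.02 to 6.12, at 1.12 to 1.27 times the detection limit. The residual SD was 0.04, and no neighbours in the order differed by more. ARID3B was dim too, at 1.23 to 1.65 times the limit. Its log2 intensity was 6.23 on the control, 6.52 and 6.35 with miR-200c native and methylated, 6.15 and 6.22 with miR-21 native and methylated, 6.09 with let7a native, 6.36 on the array labelled let7a methylated, 6.30 with miR-17 native and 6.10 on that labelled miR-17 methylated. It was highest with miR-200c native, 0.29 above the control, and lowest on the arrays labelled let7a native and miR-17 methylated. Its other probe was detected on 3 of 9 arrays and was not kept.

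**Figure D2:**
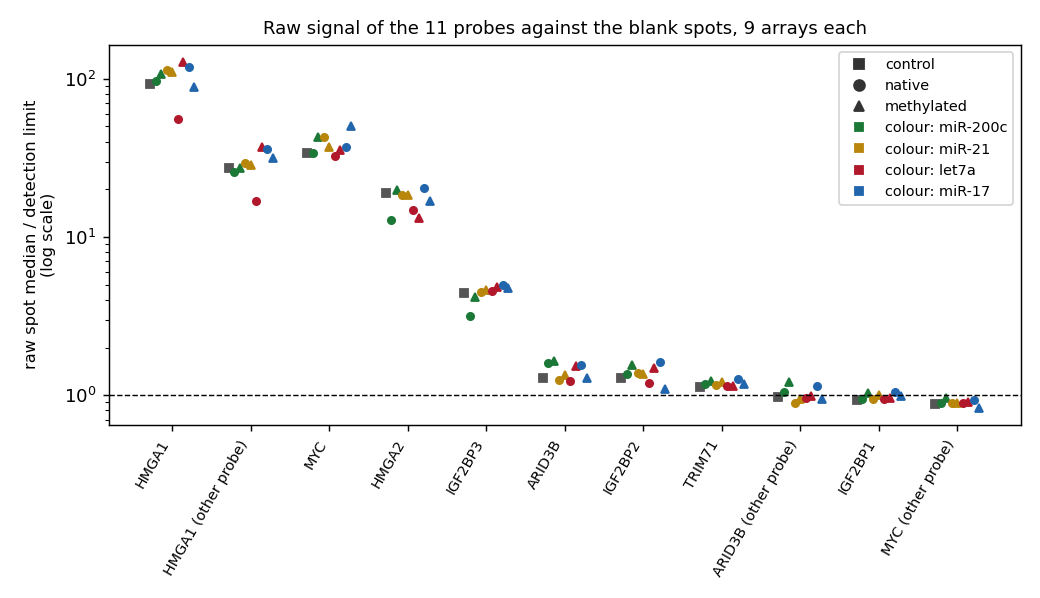
Raw intensity of each of the 11 probes divided by the detection limit of its array (vertical log axis; dashed line at 1), with 9 points per probe, squares for the control, circles for native and triangles for methylated. The probes of HMGA1, MYC, HMGA2 and IGF2BP3 clear the limit, those of ARID3B, IGF2BP2 and TRIM71 lie just above it, and IGF2BP1, the other MYC probe and the other ARID3B probe straddle it or fall below; heights are not compared between probes.

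Relative to the control, all 7 kept members were lower on the let7a native array, with a median of -0.17, where the median of all features was 0.00 and 49.2% were below. HMGA1 and HMGA2, 2 of 7, were lower by 0.5 log2 or more, as were 1.61% of all features on that array. The same 2 members of 7 passed that difference on miR-17 methylated by label, against 2.03% of features, and the members' median was -0.27. On the array labelled let7a methylated it was 1 of 7, HMGA2, against 2.94% of features, with a median of -0.02. On miR-200c native it was HMGA2 alone, against 3.85%. On the other 4 arrays 0 of 7 members passed, where 3.33% of features did with miR-200c methylated, 0.765% with miR-21 native, 1.18% with miR-21 methylated and 2.77% with miR-17 native. These 8 comparisons share the control array, and with 1 array on each side they have no replicate check. Since the members were chosen with earlier results of these data known, their counts are a description.

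The arrays labelled let7a native and miR-17 methylated were the 2 lowest of the 9 for HMGA1, IGF2BP2, TRIM71 and ARID3B, 4 of 7 members. The same pair was lowest for 6.71% of all kept features. This count was chosen after the values were seen. For TRIM71 and ARID3B the drop below the control was at most 0.14.

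Methylated minus native differences were compared within each miRNA, again 1 array each. HMGA1 differed by 1.25 log2 for let7a, with the array labelled methylated higher, by -0.58 for miR-17, by -0.21 for miR-200c and by -0.18 for miR-21. For let7a 1 of 7 members was higher by 0.5 or more, as were 2.7% of features, and for miR-17 1 of 7 was lower by as much, as were 2.51%; in both it was HMGA1. IGF2BP2 had the same signs, at 0.26 for let7a and -0.36 for miR-17, and so had ARID3B, at 0.27 and -0.19. HMGA2 was at -0.17 for let7a and -0.39 for miR-17, and MYC at 0.15 and 0.31, so the members did not share a direction.

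With all arrays no member passed the test. A limma model of the 8 miRNA arrays, which added a term for the miRNA to a term for the form and left 3 residual degrees of freedom, gave HMGA1 a difference of -0.30 (SE 0.33, adjusted p = 0.901) between let7a and the mean of the other 3 miRNAs. HMGA2 was at -0.31 (SE 0.15, adjusted p = 0.801), MYC at -0.25 (SE 0.14, adjusted p = 0.855) and IGF2BP3 at 0.12 (SE 0.09, adjusted p = 0.882), while IGF2BP2, ARID3B and TRIM71 lay between -0.05 and -0.04. Of all 16072 features 0, or 0%, passed an adjusted p of 0.05 for this contrast, and 1030 had an unadjusted p under 0.05, none of them a member. The residual SD of HMGA1, 0.57, was the largest among the members, and the 2 arrays labelled let7a lay 1.25 apart.

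Leaving 1 array out moved the HMGA1 difference from -1.09, without the array labelled let7a methylated (adjusted p = 0.321), to 0.49, without let7a native (adjusted p = 0.276), so single let7a arrays set its size and its sign. Against the negative control, in a fit of all 9 arrays in which the lone control is assumed to vary like the others, HMGA2 was at -0.71 for let7a (SE 0.22, unadjusted p = 0.0150, adjusted p = 1.0) and lower on 2 of 2 arrays. It was below that control on all 8 miRNA arrays, so this was not particular to let7a. HMGA1 was at -0.39 (SE 0.49, adjusted p = 1.0) in that fit and lower on 1 of the 2 arrays labelled let7a. In that contrast 0% of features passed the threshold in limma, and 605 had an unadjusted p under 0.05.

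Without the 2 set-apart arrays, HMGA1 and IGF2BP2 passed the threshold as lower on the let7a native array. In that fit let7a and miR-17 are 1 array each and are assumed to vary like the others. The 1 residual degree of freedom comes from the miR-200c and miR-21 pairs, so the calls do not measure the spread between let7a arrays. IGF2BP2 was dim, at 1.10 to 1.61 times the detection limit, and its residual SD in that fit was 0.01. The fit was run with the main processing only. HMGA1 was at -1.09 (SE 0.14, limma adjusted p = 0.00392) and IGF2BP2 at -0.24 (SE 0.04, adjusted p = 0.0154) against the other 3 miRNAs on average. These are 2 of 7 members, where 3.22% of features passed in either direction. ARID3B at -0.23 (adjusted p = 0.0671), MYC at -0.33 (adjusted p = 0.336), HMGA2 at -0.25 (adjusted p = 0.453) and TRIM71 at -0.07 (adjusted p = 0.385) did not pass, nor did IGF2BP3 at 0.08 (adjusted p = 0.771). Against the control HMGA1 passed at -1.12 (SE 0.19, adjusted p = 0.0209), where 1.18% of features did, and HMGA2 at -0.57 did not (adjusted p = 0.287). The epithelial marker EPCAM was higher with let7a in the same fit, by 0.56 (adjusted p = 0.0294), the only 1 of 11 kept cell type markers to pass there, and its part in these results was not tested.

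**Figure D3:**
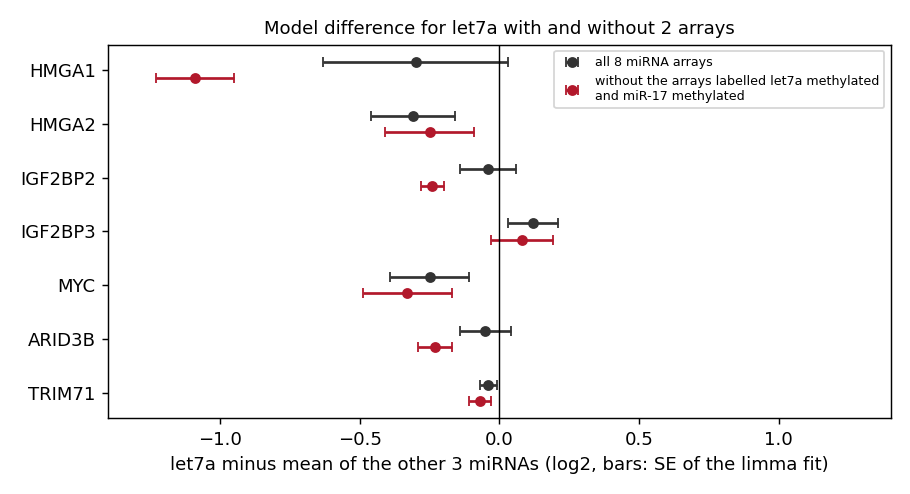
Difference in log2 intensity between let7a and the mean of the other 3 miRNAs (horizontal axis) for the 7 kept members, with bars of 1 SE of the limma fit, over all 8 miRNA arrays in grey and without 2 arrays in red. HMGA1 moves from -0.30 with an SE of 0.33 to -1.09 with an SE of 0.14 when the 2 set-apart arrays are left out.

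In the other contrasts of the model 0 of 7 members passed. For miR-200c, where 3.09% of features passed, ARID3B was at 0.23 (SE 0.09, unadjusted p = 0.0334, limma adjusted p = 0.233) and IGF2BP3 at -0.23 (SE 0.09, unadjusted p = 0.0413, adjusted p = 0.259). Both miR-200c arrays were above the control for ARID3B, as were the array labelled let7a methylated (0.13) and miR-17 native (0.07). For IGF2BP3 all 8 miRNA arrays were below the control, so the side of the control was not particular to miR-200c. ARID3B passed without the array labelled let7a methylated (0.29, adjusted p = 0.0459) and without both set-apart arrays (0.26, adjusted p = 0.00479, where 14.8% of features passed). For miR-17, miR-21 and methylated minus native, 0% of features passed in limma, and 982, 1139 and 108 had an unadjusted p under 0.05, again with no member among them. Without the set-apart arrays 0 of 7 members passed for miR-17, miR-21 and methylated minus native, where 6.48%, 1.82% and 0.0187% of features did. The difference of methylated minus native over the 4 miRNAs lay between -0.09 for HMGA2 and 0.07 for HMGA1 (SE 0.28). For HMGA1 this averages opposite differences, 1.25 for let7a and -0.58 for miR-17. Without the set-apart arrays the sign changed at both ends, with HMGA1 at -0.19 and HMGA2 at 0.10.

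Other genes reported as let-7 targets, a list of 34 with 31 named on a probe here and 27 kept, lay low on the let7a native array. The list was chosen with earlier results of these data known, so its counts are a description. Of the 27, 24 were below the control, against 49.2% of all features, with a median of -0.30. By 0.5 or more, 9 were lower, as were 1.61% of all features, and 0 were higher. CDC34, a ubiquitin-conjugating enzyme of the cell cycle, and E2F5, an E2F transcription factor, were both at -1.28, and NAP1L1, a histone chaperone, at -1.07. IRS2, an insulin receptor substrate, was the highest at 0.14. The median was -0.27, with 10 lower by 0.5 or more, on the array with the label miR-17 methylated, against 2.03% of all features. It was -0.21 with 4 on the one labelled let7a methylated, against 2.94%, and -0.14 with 3 on miR-17 native, against 2.77%. Low values were not confined to these arrays: the median was -0.20 with 4 on miR-21 native, against 0.765%, and -0.09 with 3 on miR-21 methylated, against 1.18%. With miR-200c it was 0.00 with 4 on native, against 3.85%, and -0.07 with 2 on methylated, against 3.33%.

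The arrays labelled let7a native and miR-17 methylated were the 2 lowest for 12 of these 27 genes and for 6.71% of all features. In other lists they were so for 5 of 24 MYC target genes, 2 of 10 let-7 biogenesis genes and 2 of 10 MYC partners and paralogs. The pair was lowest for 2 of 4 relatives of ARID3B and TRIM71, 0 of 7 IGF2BP client RNAs and 0 of 11 cell type markers. This count too was chosen after the values were seen. CDC34 was at -1.27 on the one labelled miR-17 methylated and at -0.06 on the one labelled let7a methylated, the pattern seen in HMGA1. CCND1, a D-type cyclin, differed from it: it was at -1.30 with miR-17 native and -1.48 on the array labelled let7a methylated, and at -0.27 with let7a native. No gene of the list passed the limma threshold with all arrays. Without the 2 set-apart arrays, with the single let7a array and the spread of other miRNAs, 5 of 27 passed as lower and 0 as higher, where 3.22% of features passed: CDC34 at -1.33 (adjusted p = 0.00238), E2F5 at -1.23 (adjusted p = 0.00225), NAP1L1 at -0.95 (adjusted p = 0.0115), PLAGL2 at -0.68 (adjusted p = 0.0119) and ACVR1B at -0.35 (adjusted p = 0.0441).

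**Figure D4:**
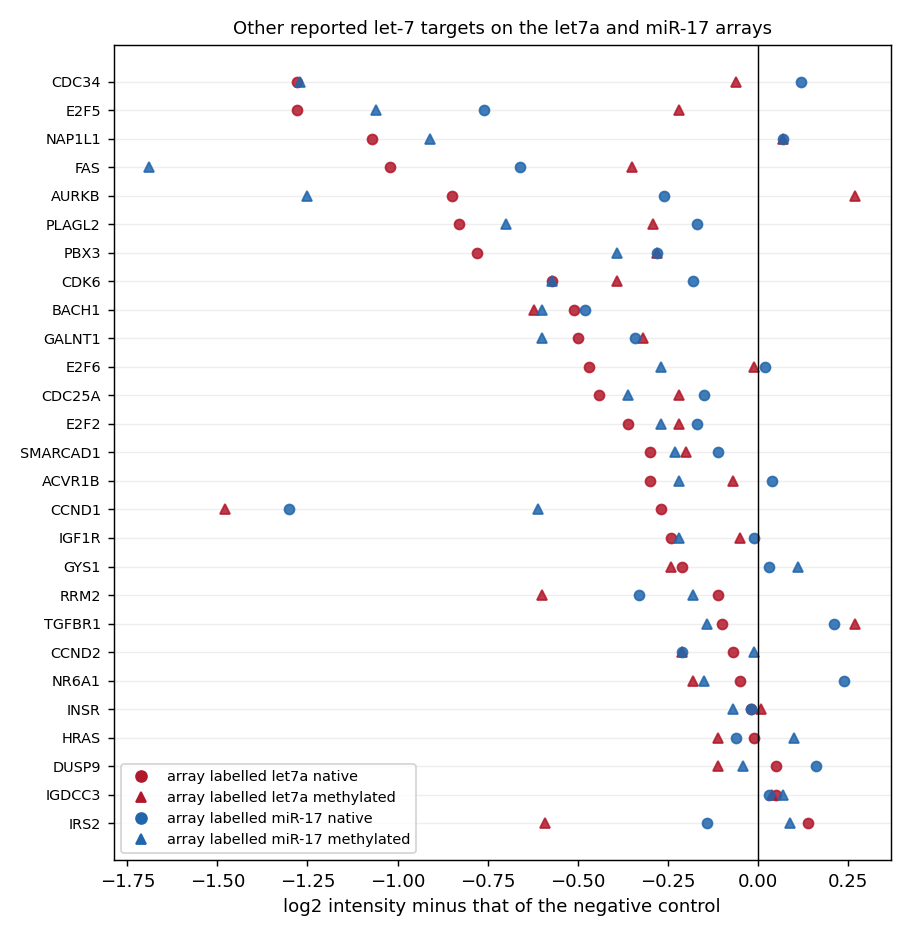
Log2 intensity relative to the negative control (horizontal axis) of the 27 kept genes of the list of other reported let-7 targets, 1 row per gene ordered by the let7a native value, with 1 point for each of the 4 arrays labelled let7a or miR-17. CDC34, NAP1L1 and PLAGL2 are low on the arrays labelled let7a native and miR-17 methylated (-1.28 and -1.27 for CDC34) and nearer the control on the others, whereas CCND1 is lowest on the array labelled let7a methylated (-1.48).

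Genes that make or carry let-7 were examined as a list of 13, all on the array and 10 kept. LIN28A, which blocks let-7 maturation, and DROSHA, the nuclear RNase that starts it, were detected on 0 of 9 arrays, and LIN28B on 3 at most. AGO2, the Argonaute that cleaves targets, was at -0.81 with let7a native and below the control on all 8 arrays (-0.42 to -0.81). TARBP2, a partner of DICER, was at -0.45 with let7a native and DICER1 at -0.36, and both had their 2 lowest values on the arrays labelled let7a native and miR-17 methylated. DGCR8, the partner of DROSHA, was the highest at 0.23. The list's median on let7a native was -0.17, and 6 of 10 genes were below the control, as were 49.2% of all features. With all arrays 0 passed in any contrast, where at most 3.09% of features did. Without the 2 set-apart arrays, TARBP2 at -0.50 (limma adjusted p = 0.0207) and DICER1 at -0.30 (adjusted p = 0.0328) passed as lower on the single let7a array, with the spread taken from other miRNAs and 3.22% of features passing.

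MYC target genes, 24 kept of 25, lay on both sides of the control on the let7a native array. There 16 were below the control, with a median of -0.10, where 49.2% of all features were below. By 0.5 or more, 1 was lower, as were 1.61% of all features, and 2 were higher. The share of features higher by as much is not reported here. FBL, a nucleolar RNA methyltransferase, was the lowest at -0.92, followed by PHB1, a prohibitin, at -0.37 and CAD, an enzyme of pyrimidine synthesis, at -0.31. ODC1, which starts polyamine synthesis, was the highest at 0.84. With all arrays 1 of 24 passed, ODC1, lower with miR-200c than with the other 3 miRNAs, at -0.86 (limma adjusted p = 0.0355), where 3.09% of features passed. For let7a 0 of 24 passed, and 0% of features. Without the 2 set-apart arrays, FBL at -0.88 (adjusted p = 0.00949) and EIF4E, the cap-binding factor of translation, at -0.30 (adjusted p = 0.0345) passed as lower on the single let7a array, with the spread again taken from other miRNAs and 3.22% of features passing.

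The genes most alike each member over the 9 arrays are given as a description, since 9 arrays are few and the arrays share a control and a normalization. For HMGA1 they were COX8A (r = 0.96), MARS2 (r = 0.96) and RND3 (r = 0.95), all lowest on let7a native, at -0.73, -0.58 and -0.22. For HMGA2 they were KIF1B (r = 0.92), GLI3 (r = 0.91) and DPP7 (r = 0.91), and for IGF2BP2 FKBP3 (r = 0.97), SLC35D2 (r = 0.97) and TARBP2 (r = 0.96). IGF2BP3 was most alike MAP4K3 (r = 0.97), DPP8 (r = 0.96) and OPRM1 (r = 0.95), and MYC most alike IFRD2 (r = 0.92), MMP16 (r = 0.90) and TBC1D29P (r = 0.90). TRIM71 had DAW1 (r = 0.93), CST6 (r = 0.92) and GARIN1A (r = 0.91), and ARID3B had OSR2 (r = 0.98), CSPP1 (r = 0.97) and FGFBP3 (r = 0.97). Among the members themselves HMGA1 was most alike IGF2BP2 (r = 0.84) and least alike IGF2BP3 (r = 0.14), and HMGA1 and HMGA2 had an r of 0.31.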

How the data were processed

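Each scanner file holds spot median intensity values on a linear scale, deposited by the authors, and per the file headers these are not background subtracted. The authors also deposited a table of processed intensity values, made by steps the sources do not state. It was used as an alternative only. Spot medians were background corrected with normexp (limma 3.58.1, R 4.3.3, offset 50), quantile normalized across the 9 arrays and log2 transformed. Control spots and 9 probes marked as outliers were left out. Probes kept numbered 17684, and a gene was read from its brightest kept probe, for 16072 features with 13391 named. Names came from the platform annotation, updated for 2899 probes, and 4224 probes with no symbol or several stayed unnamed. The limma test used an intensity trend and Benjamini-Hochberg adjustment over all features at 0.05. It was tested on simulated data only in the fits with all arrays, not in those that left arrays out. The number of arrays limits the precision, and since no label marks separate cultures, p-values reflect only the spread between arrays, which may be technical. For each member the 3 most alike genes are named, and of each list the 3 lowest and the highest on let7a native and those that passed. The members and lists were chosen with earlier results of these data known. Replicate pairing across forms is through the miRNA, a term of the model. The alternatives are given in the closing section.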

Additional observations from a re-analysis of the deposited data

Results flagged for a closer look

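HMGA1 differed between the forms in opposite directions in 2 miRNAs: methylated minus native was 1.25 log2 for let7a and -0.58 for miR-17. Each value is 1 array against 1 array, and the difference between them was not tested. Its other probe had the same signs. Each value rests on 1 of the 2 set-apart arrays, those with the labels let7a methylated and miR-17 methylated, whose profiles over all features were closer to another miRNA than to their own (r of 0.69 with miR-17 native and 0.56 with let7a native). The array labelled miR-17 methylated also had a slope between scanner gains of 0.453, against 0.409 or 0.410 on the other 8 arrays. The part of the labels or of the scan in these values was not tested.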

How the results depend on the processing

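With all arrays 0 of 7 members passed the limma threshold in the 6 contrasts, and the count stayed at 0 under median scaling, blank subtraction, a normexp offset of 16, the deposited table, both detection filters, no intensity trend and the mean of kept probes. Without the 2 set-apart arrays it was 2 for let7a against the other miRNAs, 1 for let7a against the control and 1 for miR-200c, with fewer samples in the fit and the spread taken from the miR-200c and miR-21 pairs. Leaving out single arrays left the count at 0 in 5 contrasts. For miR-200c the count was above 0 only without the array labelled let7a methylated. That fit has 1 let7a array and is not read as a result about the members. With no replicate block, that is without the miRNA as the term that pairs arrays, methylated minus native had 0 members past the threshold. Members lower than the control by 0.5 or more on let7a native numbered 2 of 7, 3 of 8 in the authors' deposited table, which adds IGF2BP2 and lists IGF2BP1, and 4 when the blank mean was subtracted, which adds IGF2BP2 and ARID3B, whose dim signal the offset compresses. Single-array differences moved by over the residual SD in 58 of 392 comparisons, and 12 of the 392 changed sign. The deposited table's medians shifted by 0.55 on miR-200c methylated and 0.26 on miR-17 native, and HMGA2 and MYC on miR-200c methylated were at 0.13 and 0.42 there. A slide or scan block was not run, since the headers name none that holds over 1 array. The signal of IGF2BP1 and of the dim probes limits what can be seen.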

Other observations

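MYC partners and paralogs, 10 kept of 11, lay near the control on let7a native, with a median of -0.06. Of the 10, 0 were lower by 0.5 log2 or more, where 1.61% of all features were, and 0 were higher by as much. With all arrays 0 passed the limma threshold in any contrast, where at most 3.09% of features did. Counts of 0 among 10 genes are near these shares. MAX, the partner MYC needs to bind DNA, was at -0.19, MXD1, which competes with MYC for MAX, at -0.17 and ZBTB17, a partner of MYC in repression, at -0.14, and MXD3, another MAX partner, was the highest at 0.24. MYCN was detected on 1 of 9 arrays. Of 11 client RNAs reported for the IGF2BP proteins, 7 were kept, and HMGA2, itself a member here, was the lowest on let7a native at -0.62. MKI67, a proliferation marker, was at -0.44 there and below the control on all 8 arrays, while ACTB was at -0.12 and IGF2, the growth factor that named the family, was the highest at 0.13. Of 5 relatives of ARID3B and TRIM71, 4 were kept: ARID3A was at -0.25, TRIM3 at -0.05, TRIM2 at -0.01 and TRIM32 at 0.16 on let7a native. TRIM2 was lower with miR-200c than with the other 3 miRNAs, at -0.39 (limma adjusted p = 0.0259), where 3.09% of features passed.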
